A study of Mus musculus with 5 samples.

Results

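The genes described here are the matrix metalloproteases (MMPs), the ADAM and ADAMTS proteases, the protease-free ADAMTS-like proteins and the tissue inhibitors of metalloproteases (TIMPs) of mouse atria. They were taken by symbol: every gene of the authors' deposited comparison table whose symbol begins with Mmp, Timp, Adam, Adamts or Adamtsl followed by a digit. That rule found 49 of the 14927 genes in that table, and all 49 were also in the count tables of 57186 genes. One of them, Mmp24os1, is by its name an opposite-strand gene of Mmp24 and encodes no protease of the family, so 48 genes belong to the families proper. The rule used symbols and no measured difference.

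Mice with 1 allele coding for MRC2 E990G (het) were set against wild-type mice (WT), and the tissue was the cardiac atria. MRC2 is an endocytic receptor of mesenchymal cells that takes up collagen fragments. The series describes 7 het and 8 WT mice aged 4 to 10 months, whose atria were frozen and sequenced as stranded polyA RNA libraries, 1 atrial pair to a library. The 5 libraries used here all belong to batch 2, and they are het 5, het 6 and het 7 together with WT 7 and WT 8. The other animals were not analysed here. The labels state no treatment, no strain and no sex.

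MMPs are secreted or membrane-bound zinc proteases that cut collagens, elastin and other matrix proteins, and most are made as inactive precursors that another protease must cleave. ADAMs sit in the cell membrane and release the outer parts of membrane proteins, while ADAMTS enzymes are secreted and cut proteoglycans, procollagens and other matrix proteins. TIMPs bind and block the active site of these enzymes, so in the heart the balance of proteases and TIMPs is usually discussed together with collagen turnover.

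Total expected counts per library, the read numbers that RSEM assigns to genes, ran from 17784601 (WT 8) to 28353091 (het 7). The atrial cardiomyocyte markers Nppa, Myl4, Myl7 and Sln marked every library, with a lowest value of 2224 TPM (Sln in het 6), where TPM is a level corrected for transcript length and library total, and the ventricular markers Myl2, Myh7 and Irx4 together ran from 11.7 to 327 TPM in het and reached 128 TPM in WT 8. WT 7 was the only library with clear expression of the Y-linked gene Ddx3y, with 938 expected counts, against 0 to 3 in the other 4 libraries. With 1 such library, sex and the other properties of WT 7 cannot be told apart. Values without WT 7 are given for Adamtsl3, Pcsk6 and some other genes, but not for the marker genes.

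All 49 genes passed the test's low-count filter. The authors' comparison table, from which they were taken, lacked 36 further genes of these families. Of those 36, 35 had at most 20 expected counts in any library, so passing the filter was largely set by the selection. The mean level of the 49 over the 5 libraries ran from 0.26 TPM (Adamts4, an aggrecan-cutting protease) to 95.6 TPM (Timp3). Of the 49, 10 had a mean of at least 20 TPM, 16 lay between 5 and 20, 14 between 1 and 5, and 9 under 1 TPM. The 4 TIMPs made up the largest share of the summed level of the group, with 28.6%, 35.1% and 27.3% in the het libraries and 28.3% and 26.2% in the WT libraries. Summed levels were 617, 671 and 720 TPM in het 5, het 6 and het 7, against 657 TPM in WT 7 and 540 TPM in WT 8. The het and WT libraries overlapped in this sum.

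**Figure D1:**
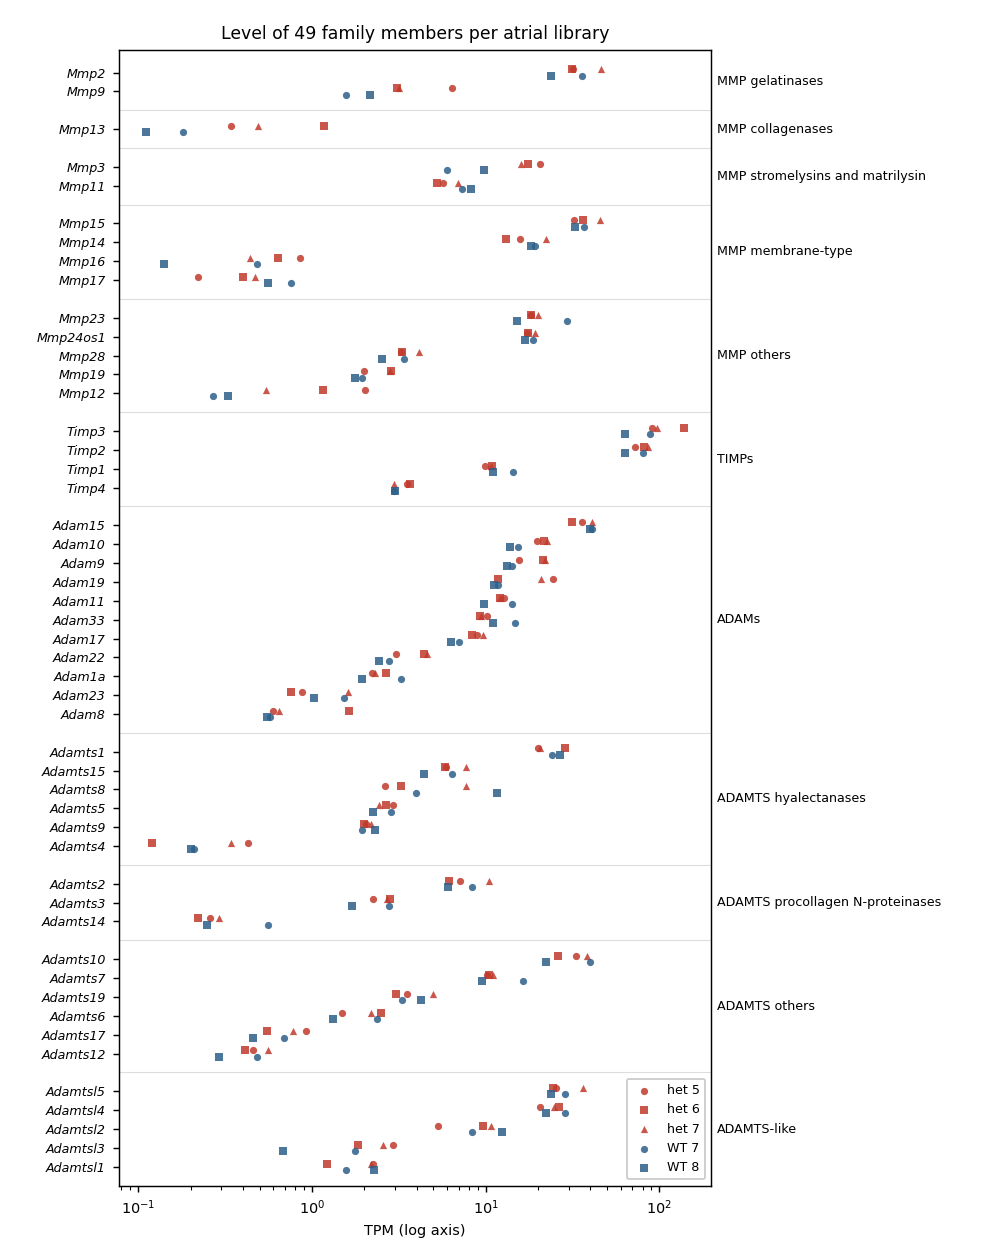
Level of each of the 49 genes in TPM on a log axis, with 1 symbol for each library, the het libraries in red and the WT libraries in blue. Timp3 and Timp2 stand above 60 TPM in all 5 libraries, and Mmp3, Mmp9, Mmp12 and Mmp13 are the MMP genes in which every het library lies well to the right of both WT libraries.

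**Figure D2:**
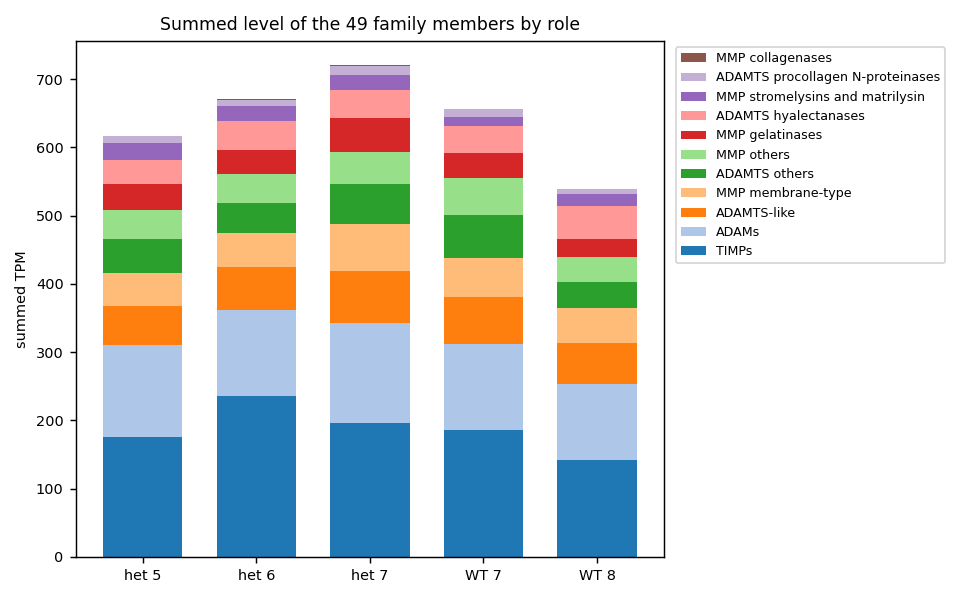
Summed TPM of the 49 genes by role in each library, as stacked bars. TIMPs and ADAMs make up the lowest and largest blocks of every bar, and the total is 617, 671 and 720 TPM in het 5, het 6 and het 7 and 657 and 540 TPM in WT 7 and WT 8.

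The question for this group was which of its genes had another level in het atria. One gene, Adamtsl3, rose in het, and 0 fell (edgeR quasi-likelihood test, adjusted p under 0.05). Among all 16412 genes tested, 2.99% were called higher and 2.66% lower, 5.64% in all, so 1 call among 49 genes is not above the background. At an unadjusted p under 0.05, 8 of the 49 were higher and 2 lower, beside 12.9% and 11.9% of all genes. In CPM, counts scaled to the library total with TMM factors, the groups did not overlap for 10 higher and 7 lower genes, beside 21.1% of all genes in each direction and 42.3% in all. The log2 fold changes of the 49 were balanced, with 25 above 0 and 24 below and a median of 0.01, where the median of all tested genes was -0.001. An absolute log2 fold change of at least 1 was found for 4 of the 49, beside 6.04% of all genes. All 4 were MMPs on the higher side, Mmp3, Mmp9, Mmp12 and Mmp13, and none of these 4 passed the threshold in this edgeR fit. Mmp12 and Mmp13 had at most 11 expected counts in each WT library and would not have passed the low-count filter on WT alone. They entered the test through the het libraries, where they were high, so their place among the 4 is partly set by the filter. Because atria were sequenced whole, fewer cells of a type and less RNA per cell cannot be told apart in any of these values. The p-values measure the spread between these 5 libraries.

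**Figure D3:**
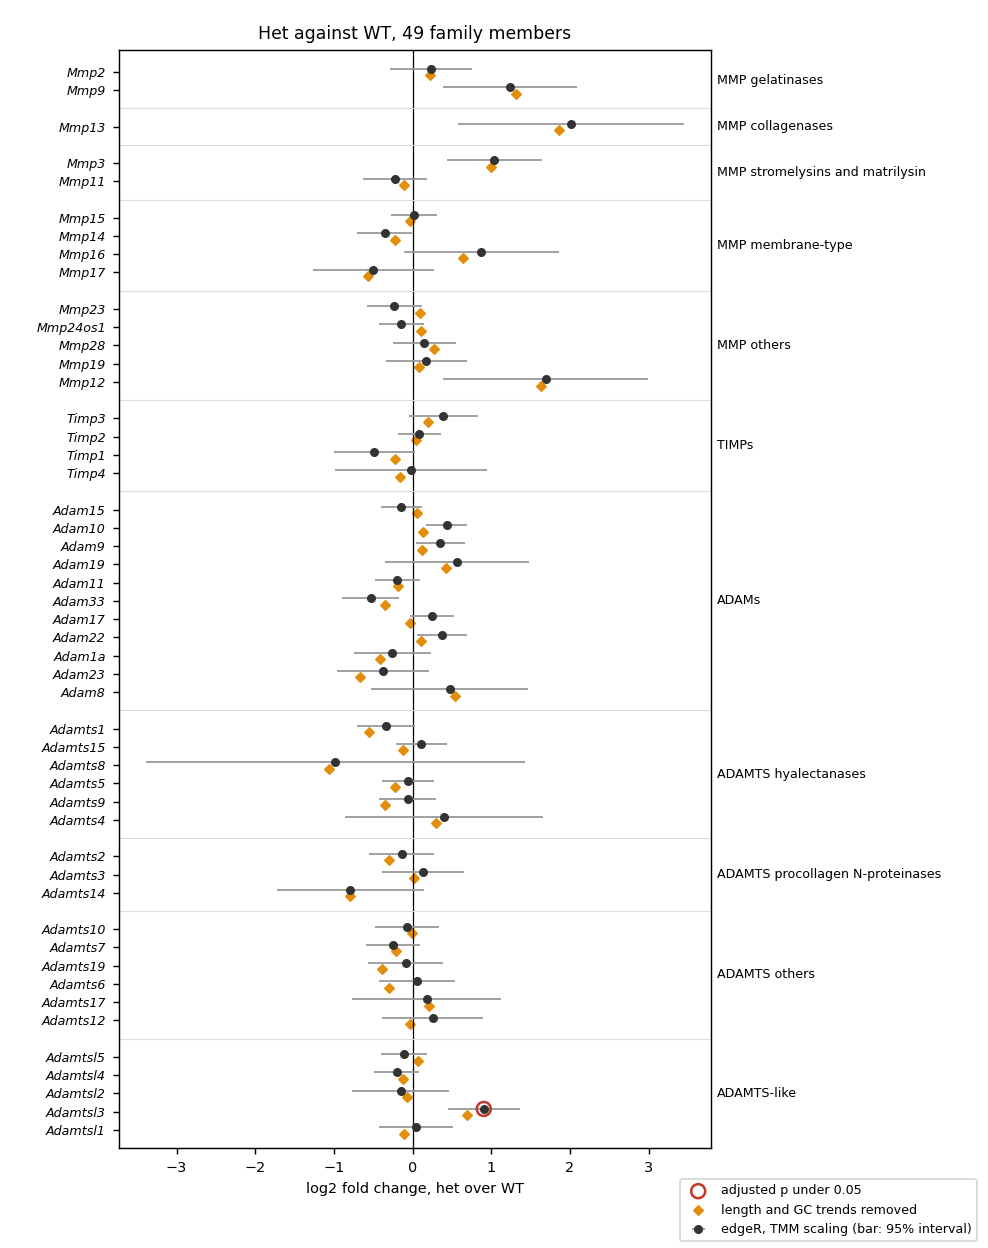
Log2 fold change of each of the 49 genes, het over WT, with its 95% interval (black, edgeR with TMM scaling) and with length and GC trends removed (orange diamonds). Adamtsl3, ringed, is the only gene of the 49 with an adjusted p under 0.05, and the 4 genes at or above 1 are MMPs.

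Other fits called different numbers of the 49. With library size alone as scaling, 3 were higher and 0 lower (Adam10 and Mmp3 beside Adamtsl3), where 4.84% of all genes were called higher and 2.38% lower. DESeq2 called 4 higher and 0 lower, with Mmp9 added to those 3, beside 5.28% and 4.75%. With every gene with a count kept in edgeR, 7 were higher and 0 lower, with Mmp12, Mmp13 and Adam19 added, beside 4.13% and 2.87%. Adam19, given here after its values were seen, had 24.5, 11.7 and 20.9 TPM in het and 11.75 and 11.2 TPM in WT. The Adam19 groups thus overlapped, and with the filter in place its log2 fold change was 0.56 (SE 0.35, edgeR adjusted p = 0.407). By limma-voom Mmp3 was the 1 gene called higher and 0 were lower, beside 1.44% and 1.35%. Without WT 8 the edgeR fit called Mmp3 higher and Adam33 lower, beside 3.36% and 1.66%. With the length trend removed 0 of the 49 were called, beside 0.0609% higher and 0.0548% lower, and with length and GC trends removed 0 were called, beside 0.177% and 0.0914%.

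Adamtsl3 belongs to the ADAMTS-like genes, which encode secreted glycoproteins of the matrix that share the ancillary domains of the ADAMTS enzymes but lack the protease domain. It had 2.94, 1.85 and 2.58 TPM in het 5, het 6 and het 7, against 1.77 TPM in WT 7 and 0.68 TPM in WT 8. Each het library was above both WT libraries, though het 6 was only just above WT 7 on this scale. The mean was 2.46 ± 0.56 TPM in het (SD, n = 3) and 1.23 ± 0.77 TPM in WT (SD, n = 2). Behind these levels stood 201, 247 and 271 expected counts in the het libraries and 124 and 95 in the WT libraries. In the edgeR quasi-likelihood test, Adamtsl3 rose by 0.90 in log2 units (SE 0.21, adjusted p = 0.0349). Its 95% interval ran from 0.45 to 1.36.

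The direction of the Adamtsl3 difference held in every fit, and the call did not. With any 1 library left out the edgeR adjusted p was above the threshold, at 0.0625 without het 5, 0.116 without het 6, 0.072 without het 7, 0.102 without WT 7 and 0.0521 without WT 8, with log2 fold changes of 0.82 to 0.98. With length and GC trends removed the log2 fold change was 0.69 (SE 0.20, edgeR adjusted p = 0.138). Its leading transcript, ENSMUST00000173287 of 7249 bases, took 97.4%, 93.4% and 91.4% of the gene's expected counts in the het libraries and 87.9% and 100% in the WT libraries, so the counts of this gene came mostly from 1 transcript. By the deposited isoform percent, which is per length, the same transcript held 42.4%, 79.4% and 50.6% in het and 34.9% and 100% in WT. A transcript of 497 bases took 41.5% in het 5 and 52.7% in WT 7 and was at 0 in the other 3 libraries, and the gene's TPM rests in part on that split.

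The other 4 ADAMTS-like genes gave edgeR log2 fold changes between -0.20 and 0.04, and 0 of them passed the test. Adamtsl5 was the most abundant, with 25.5, 24.3 and 36.3 TPM in het and 28.7 and 23.7 TPM in WT. Adamtsl4, whose protein binds fibrillin microfibrils, had 20.5, 26.3 and 24.7 TPM in het and 28.5 and 22.1 TPM in WT. Adamtsl2, whose protein also binds fibrillin and the latent TGF-beta binding protein, had 5.33, 9.70 and 10.7 TPM in het and 8.31 and 12.5 TPM in WT. In these 3 genes and in Adamtsl1 the groups overlapped.

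The 3 MMP genes Mmp13, Mmp12 and Mmp3 lie on chromosome 9 in a run of 10 Mmp genes in the reference annotation, ordered Mmp13, Mmp12, Mmp1b, Mmp3, Mmp1a, Mmp10, Mmp8, Mmp27, Mmp20 and Mmp7. They encode a collagenase, the macrophage elastase and stromelysin-1. Of the 10 genes, 5 were at 0 TPM in all 5 libraries, namely Mmp1b, Mmp1a, Mmp10, Mmp20 and Mmp7. The neutrophil collagenase gene Mmp8 had at most 5 expected counts in any library, and Mmp27 had 9, 20 and 15 in het and 14 and 4 in WT. Mmp13, Mmp12 and Mmp3 are the genes of the run that are among the 49, and each was higher in every het library than in both WT libraries. Mmp13 and Mmp12 passed the low-count filter through the het libraries and would not have passed it on WT alone. The proximal promoters of these 3 genes are shown because the genes lie close together and were all on the higher side, and they were chosen with those values known. Each sequence holds the 90 bases before a listed start, on the plus strand of GRCm38.p6 as given by RefSeq, and the capitals mark the match to the AP-1 motif TGANTCA, which reads as itself on the other strand.
Mmp13: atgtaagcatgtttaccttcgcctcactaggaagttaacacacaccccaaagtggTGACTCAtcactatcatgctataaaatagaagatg
Mmp12: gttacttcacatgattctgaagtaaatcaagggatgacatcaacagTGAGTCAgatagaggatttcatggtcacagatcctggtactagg
Mmp3: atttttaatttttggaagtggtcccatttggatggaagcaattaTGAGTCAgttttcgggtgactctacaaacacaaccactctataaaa
They stand at chr9:7272424-7272513 for Mmp13, chr9:7347284-7347373 for Mmp12 (the second of 2 listed starts) and chr9:7445732-7445821 for Mmp3. The match begins 35, 44 and 46 bases before the start. The first listed start of Mmp12 had no match in its window and is not shown, so the start shown for Mmp12 was chosen by its match. The promoter of Mmp9, on another chromosome and also with a log2 fold change above 1, was not analysed here.

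Over windows of 300 bases, reaching from 250 bases before to 50 after each start, 7.81% of all 32851 RefSeq promoters held TGANTCA. RefSeq promoters were found for 31 of the 49 genes, in 35 windows, and 4 of these windows (11.4%) held the motif: those of Mmp3, Mmp12, Mmp13 and Adam19. The motif AGGAAG, known as PEA3 and searched on both strands, was in 31.4% of the 35 windows and in 35.4% of all promoters. A match describes these letters only.

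Mmp3, which degrades proteoglycans and activates other pro-MMPs, had the highest level and the smallest adjusted p of the 3. Its level was 20.7, 17.5 and 15.9 TPM in het 5, het 6 and het 7, against 5.99 TPM in WT 7 and 9.73 TPM in WT 8. The lowest het library was above the higher WT library. Mean levels were 18.0 ± 2.4 TPM in het (SD, n = 3) and 7.86 ± 2.6 TPM in WT (SD, n = 2). The log2 fold change was 1.04 (SE 0.26), and the edgeR quasi-likelihood adjusted p of 0.0575 missed the threshold. WT 7 and WT 8 pulled this value apart: without WT 8 the log2 fold change was 1.505 (edgeR adjusted p = 0.0177) and without WT 7 it was 0.68 (edgeR adjusted p = 0.13). DESeq2 gave 1.03 and an adjusted p of 0.00486, and limma-voom gave 1.11 and 0.0492. With length and GC trends removed the edgeR value was 0.99 (SE 0.24, adjusted p = 0.128). The gene has a single transcript in the tables.

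Mmp13, an interstitial collagenase, was measured near the lower end of the range. It had 18, 61 and 31 expected counts in het 5, het 6 and het 7, against 11 in WT 7 and 5 in WT 8. In TPM these were 0.34, 1.18 and 0.49 in het, against 0.18 and 0.11 in WT. The groups did not overlap, and het 6 stood far above the other libraries. The log2 fold change of 2.01 (SE 0.67, edgeR adjusted p = 0.0849) was the largest of the 49, and its 95% interval ran from 0.57 to 3.45. Without het 6 it was 1.33 (edgeR adjusted p = 0.298).

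Mmp12, chosen for naming after its values were seen, is the elastase of macrophages. It had 54, 30 and 26 expected counts in the het libraries and 11 and 9 in the WT libraries. In TPM these were 2.02, 1.15 and 0.54 in het, against 0.27 and 0.33 in WT. Every het library was above both WT libraries, with a log2 fold change of 1.69 (SE 0.60, edgeR adjusted p = 0.102). RSEM divided its counts over 4 of 7 transcripts, and the share of the leading one ran from 10.6% to 78.9% of counts in het and from 77.8% to 82.8% in WT.

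Of the gelatinases, which degrade denatured collagen and basement membrane collagen, Mmp9 was higher in each het library and Mmp2 was not. Mmp9 had 6.40, 3.08 and 3.17 TPM in het 5, het 6 and het 7, against 1.57 TPM in WT 7 and 2.17 TPM in WT 8. This was a log2 fold change of 1.24 (SE 0.38, edgeR adjusted p = 0.0818, and 1.31 with length and GC trends removed). Het 5 was the highest library, and without it the value was 0.77 (edgeR adjusted p = 0.143). The Mmp9 value was 1.32 without WT 7 and 1.19 without WT 8. Mmp2, the constitutive gelatinase of fibroblasts, had 31.8, 31.4 and 46.4 TPM in het, against 36.0 and 23.7 TPM in WT. The Mmp2 groups overlapped, with a log2 fold change of 0.24 (SE 0.23, edgeR adjusted p = 0.567) that was -0.03 without WT 8 and 0.59 without WT 7.

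**Figure D4:**
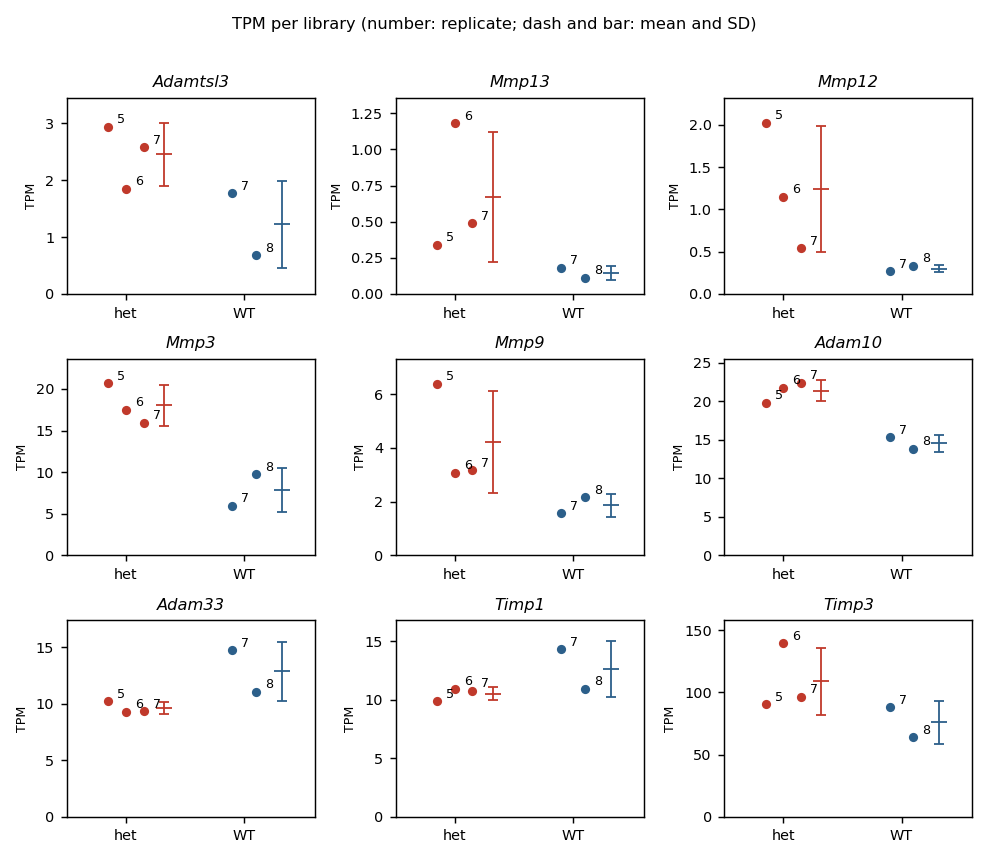
TPM in each library for 9 of the genes, with the mean and SD of each group beside the points and the replicate number at each point. The het points lie above both WT points in the panels of Adamtsl3, Mmp13, Mmp12, Mmp3, Mmp9, Adam10 and Timp3, and below both in those of Adam33 and Timp1.

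Leukocyte markers were read in the same libraries. Of all tested genes, 2.99% were called higher and 2.66% lower. With length and GC trends removed these shares were 0.177% and 0.0914%, and marker values with the trends removed are not given here. Without het 7 the edgeR fit called 0 genes higher and 0 lower. Every marker call in this paragraph and the next was therefore lost with that library left out. The 7 macrophage markers summed to 266, 339 and 260 TPM in het 5, het 6 and het 7, against 230 and 224 TPM in WT 7 and WT 8, and 2 of the 7, Adgre1 and Cd163, rose in the edgeR test while 0 fell. Adgre1 had a log2 fold change of 1.14 (edgeR adjusted p = 0.0297) and Cd163 one of 1.03 (edgeR adjusted p = 0.0364). The 3 C1q genes, the most abundant of the list, had values of 0.06 to 0.14, and 0 of them passed. The 5 neutrophil markers summed to 8.08, 13.6 and 5.79 TPM in het and to 0.41 and 3.66 TPM in WT, with Ly6g at 0 in all libraries and 0 of the 2 tested called. The 5 mast cell markers summed to 13.8, 9.33 and 13.7 TPM in het and to 7.05 and 4.74 TPM in WT, with 0 called. The 6 lymphocyte markers summed to 23.1, 50.7 and 21.8 TPM in het and to 7.50 and 10.3 TPM in WT, and Igkc was the 1 of 5 tested that rose. Igkc, an immunoglobulin light chain gene of plasma cells, supplied most of that sum in every library but WT 7. The other 5 markers summed to 3.29, 8.08 and 3.57 TPM in het and to 4.38 and 2.04 TPM in WT, where the groups overlapped, and Cd3g had a log2 fold change of -0.74. The part of these cells in the MMP values was not tested.

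Fibroblast markers, of the cells that express Mrc2 and Mmp2, summed to 957, 984 and 982 TPM in het and to 866 and 586 TPM in WT. Of the 7, only Lum rose (log2 fold change 0.50, edgeR adjusted p = 0.0439), and WT 8 was the low library. The proteoglycan gene Dcn carried most of the sum, and the other 6 markers overlapped between the groups, at 274, 254 and 366 TPM in het and 311 and 208 TPM in WT. The log2 fold changes of 4 of the 7 were below 0, namely Col1a1, Col1a2, Col3a1 and Tcf21 at -0.24, -0.22, -0.13 and -0.05. Of the 4 atrial cardiomyocyte markers, Nppa and Myl4 fell, by 0.64 and 0.68 on the log2 scale (edgeR adjusted p = 0.041 and 0.0305). The ventricular marker Myh7 fell by 0.58 (edgeR adjusted p = 0.0439). Myl2, the other ventricular marker tested, had a log2 fold change of -0.001. Its levels were 67.5, 319 and 4.0 TPM in het and 92.1 and 119 TPM in WT. The 6 smooth muscle and pericyte markers summed to 132, 132 and 164 TPM in het and to 152 and 156 TPM in WT, and Tagln, a contractile smooth muscle gene, was the 1 called, as it fell by 0.93 on the log2 scale (edgeR adjusted p = 0.0229). Acta2 and Myh11 of the same list had values of -0.84 and -0.58, and Rgs5 and Pdgfrb, which mark pericytes, had 0.37 and 0.24. Kcnj8, the remaining marker of that list, had -0.08. Their part in the values of the proteases was not tested.

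The remaining stromelysin-group gene, Mmp11, had 5.67, 5.27 and 6.92 TPM in het, against 7.34 and 8.25 TPM in WT. Its log2 fold change on counts was -0.22 (SE 0.19, edgeR adjusted p = 0.507), and in CPM the groups overlapped.

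The membrane-type MMPs, which act at the cell surface, gave 0 calls. Mmp14, the activator of pro-MMP2 and a collagenase itself, had 15.7, 13.1 and 22.4 TPM in het, against 19.1 and 18.2 TPM in WT. In CPM all 3 het libraries were below both WT libraries, whereas in TPM they overlapped. Its log2 fold change was -0.35 (SE 0.16, edgeR adjusted p = 0.197), and -0.22 with length and GC trends removed. Mmp15 was the most abundant membrane-type gene and the most abundant MMP, at 32.5, 36.5 and 45.5 TPM in het and 36.7 and 32.6 TPM in WT, with a log2 fold change of 0.01 (SE 0.14). The interval for Mmp15 ran from -0.28 to 0.31.

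Mmp16 and Mmp17 were both under 1 TPM. Mmp16 had 0.85, 0.64 and 0.44 TPM in het and 0.48 and 0.14 TPM in WT, with a log2 fold change of 0.87 (SE 0.46, edgeR adjusted p = 0.26). Mmp17, which is anchored to the membrane by a glycolipid, had 0.22, 0.40 and 0.47 TPM in het and 0.76 and 0.56 TPM in WT, with a log2 fold change of -0.50 (SE 0.35, edgeR adjusted p = 0.417). In Mmp17 the groups did not overlap, and in Mmp16 they overlapped in TPM but not in CPM.

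Among the other MMP genes, Mmp23 had 18.2, 18.2 and 19.9 TPM in het and 29.3 and 15.2 TPM in WT. Its log2 fold change of -0.23 (SE 0.16, edgeR adjusted p = 0.404) was 0.10 once length and GC trends were removed. Mmp28 (epilysin) had 3.27, 3.28 and 4.15 TPM in het and 3.38 and 2.54 TPM in WT, with a log2 fold change of 0.15 (SE 0.18). The groups overlapped for Mmp23 and Mmp28. Mmp24os1 had 17.3, 17.4 and 19.4 TPM in het and 18.6 and 16.9 TPM in WT, with a log2 fold change of -0.14 (SE 0.13). The libraries are stranded, but how strand entered the counting is not given in the sources used here, so reads of Mmp24os1 and its antisense partner may be mixed.

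Of the 4 TIMPs, 0 passed the test. Timp3, the inhibitor that binds to the matrix and also blocks ADAM17 and ADAMTS enzymes, had 90.5, 139 and 96.5 TPM in het 5, het 6 and het 7, against 87.9 and 63.8 TPM in WT 7 and WT 8. In TPM each het library was above both WT libraries, and het 5 was only just so, while in CPM the groups overlapped. The log2 fold change was 0.39 (SE 0.20, edgeR adjusted p = 0.255), and 0.19 with length and GC trends removed. Timp2, which takes part in the activation of pro-MMP2 by MMP14, had 72.3, 81.7 and 86.4 TPM in het and 80.6 and 63.6 TPM in WT, with a log2 fold change of 0.09 (SE 0.13, 95% interval -0.19 to 0.36). The Timp2 groups overlapped.

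Timp1, the inducible inhibitor, had 9.87, 10.93 and 10.75 TPM in het, against 14.3 TPM in WT 7 and 10.95 TPM in WT 8. Het 6 and WT 8 were nearly at the same level, and the groups did not overlap. The log2 fold change was -0.49 (SE 0.24, edgeR adjusted p = 0.227), and -0.22 with length and GC trends removed. Timp1 is the shortest of the 49, at a mean transcript length of 864 bases. Timp4, the inhibitor most typical of the heart, had 3.52, 3.65 and 2.96 TPM in het and 2.96 and 3.01 TPM in WT. Its log2 fold change on counts was -0.02 (SE 0.40), and it turned on the WT libraries, at 0.80 without WT 8 and -0.55 without WT 7.

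The ratio of the summed TIMP level to the summed level of the 13 MMPs was 1.26, 1.75 and 1.16 in het 5, het 6 and het 7, against 1.30 in WT 7 and 1.23 in WT 8. Het 6 had the highest ratio and het 7 the lowest, so the het libraries spanned the WT libraries. The sum over MMPs was 140, 135 and 169 TPM in het and 143 and 115 TPM in WT, and 4 of 13 MMPs were higher and 1 lower at an unadjusted p under 0.05, beside 12.9% and 11.9% of all genes.

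None of the 11 ADAM genes passed the edgeR test, and 3 were higher and 1 lower at an unadjusted p under 0.05, beside the same 12.9% and 11.9%. Adam10, the main sheddase of Notch receptors and cadherins, had 19.8, 21.8 and 22.4 TPM in het, against 15.3 and 13.8 TPM in WT. Every het library was above both WT libraries, and the log2 fold change of 0.43 (SE 0.12) had an edgeR adjusted p of 0.0544. With length and GC trends removed it was 0.14 (edgeR adjusted p = 0.599). Adam9 had 15.7, 21.5 and 21.9 TPM in het and 14.2 and 13.2 TPM in WT, with a log2 fold change of 0.35 (SE 0.14, edgeR adjusted p = 0.146) that was 0.12 with these trends removed.

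Adam33 lay on the other side. It had 10.2, 9.28 and 9.34 TPM in het 5, het 6 and het 7, against 14.7 TPM in WT 7 and 11.04 TPM in WT 8. Every het library was below both WT libraries, with a log2 fold change of -0.53 (SE 0.17, edgeR adjusted p = 0.0745). This rested on WT 7, the higher library: without WT 8 the value was -0.74 (edgeR adjusted p = 0.0314), and without WT 7 it was -0.25 (edgeR adjusted p = 0.458). Reads of Adam33 were spread over 12 of 13 transcripts, and its leading transcript by isoform percent held 12.7% to 18.2% of the counts.

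Adam15 was the most abundant ADAM, with 35.8, 31.3 and 40.7 TPM in het and 41.1 and 39.7 TPM in WT, and a log2 fold change of -0.14 (SE 0.12). Adam22, which encodes a protein without protease activity that serves as a receptor in neurons, was named after its values were seen and had 3.06, 4.40 and 4.57 TPM in het and 2.76 and 2.44 TPM in WT. The log2 fold change of Adam22 was 0.37 (SE 0.15, edgeR adjusted p = 0.139), and 0.11 with length and GC trends removed (edgeR adjusted p = 0.778). Its transcripts are the longest among the ADAMs, with a mean of 7909 bases. Adam17, the shedding enzyme of TNF and of EGF receptor ligands, is also given after its values were seen, at 8.89, 8.38 and 9.64 TPM in het and 7.01 and 6.35 TPM in WT. Its log2 fold change was 0.25 (SE 0.13, edgeR adjusted p = 0.261), and -0.03 with length and GC trends removed. The het libraries were above both WT libraries for Adam17 and Adam22. Adam1a shares reads with its close copy Adam1b, so its level of 1.95 to 3.27 TPM is uncertain.

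The 15 ADAMTS genes gave 0 calls in either direction, and 0 of them reached an unadjusted p under 0.05 in the edgeR fit. Their summed level was 93.2, 94.6 and 112 TPM in het, against 114 and 93.7 TPM in WT, and their log2 fold changes had a median of -0.06. In the subgroup that cuts the large proteoglycans aggrecan and versican, Adamts1 had 19.9, 28.5 and 20.6 TPM in het and 24.1 and 26.9 TPM in WT, with a log2 fold change of -0.33 (SE 0.17, edgeR adjusted p = 0.244). Adamts15 had 5.90, 5.80 and 7.66 TPM in het and 6.37 and 4.43 TPM in WT, with a log2 fold change of 0.11 (SE 0.15). The groups overlapped in both genes.

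Adamts8 had the largest SE of the 49. It had 2.62, 3.26 and 7.71 TPM in het 5, het 6 and het 7, against 3.97 TPM in WT 7 and 11.6 TPM in WT 8. The log2 fold change of -0.98 had an SE of 0.79 (edgeR adjusted p = 0.541), and it was 0.11 without WT 8 and -1.60 without WT 7. Adamts5, an aggrecanase, had 2.91, 2.67 and 2.44 TPM in het and 2.85 and 2.24 TPM in WT, with a log2 fold change of -0.06 (SE 0.15, 95% interval -0.38 to 0.27).

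The procollagen N-proteinases are Adamts2, Adamts3 and Adamts14, a subgroup that removes the N-terminal propeptides of procollagens. Adamts2 had 7.15, 6.19 and 10.5 TPM in het and 8.38 and 6.03 TPM in WT, with a log2 fold change of -0.14 (SE 0.19). Adamts3, known also for processing VEGF-C, had 2.26, 2.80 and 2.71 TPM in het and 2.77 and 1.69 TPM in WT, with a log2 fold change of 0.13 (SE 0.24). Adamts14 had 0.26, 0.22 and 0.29 TPM in het and 0.56 and 0.25 TPM in WT, with a log2 fold change of -0.79 (SE 0.43, edgeR adjusted p = 0.282). This rested on WT 7, the high library, since the value was -0.18 without WT 7 and -1.18 without WT 8. In TPM the groups overlapped for all 3 genes, while in CPM each het library was below both WT libraries for Adamts14.

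Of the other ADAMTS genes, Adamts10, whose protein binds fibrillin-1, was the most abundant ADAMTS, with 33.2, 26.03 and 38.4 TPM in het and 39.8 and 22.2 TPM in WT. Adamts7, which degrades cartilage oligomeric matrix protein, had 10.1, 10.5 and 11.1 TPM in het and 16.3 and 9.52 TPM in WT. Adamts19 had 3.51, 3.05 and 4.98 TPM in het and 3.28 and 4.23 TPM in WT. The log2 fold changes of these 3 genes were -0.07 (SE 0.18), -0.25 (SE 0.16) and -0.09 (SE 0.21), and the groups overlapped in each.

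Transcript length has to be read beside these values, because fold changes in these libraries followed it. Over all tested genes, the median value was -0.18 log2 units under 2500 bases, 0.09 between 2500 and 4000 bases and 0.28 over 4000 bases. The medians of the 49 were -0.14 (11 genes), 0.11 (16 genes) and 0.05 (22 genes) in the same bands. The 22 long members, most of them ADAMs and ADAMTS genes, thus had a lower median than genes of their length, and with the length trend removed it was -0.13 beside 0.07 for all genes over 4000 bases. These medians are descriptions and no test. The longest of the 4 MMP genes with a log2 fold change above 1 was Mmp13, at 2673 bases.

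**Figure D5:**
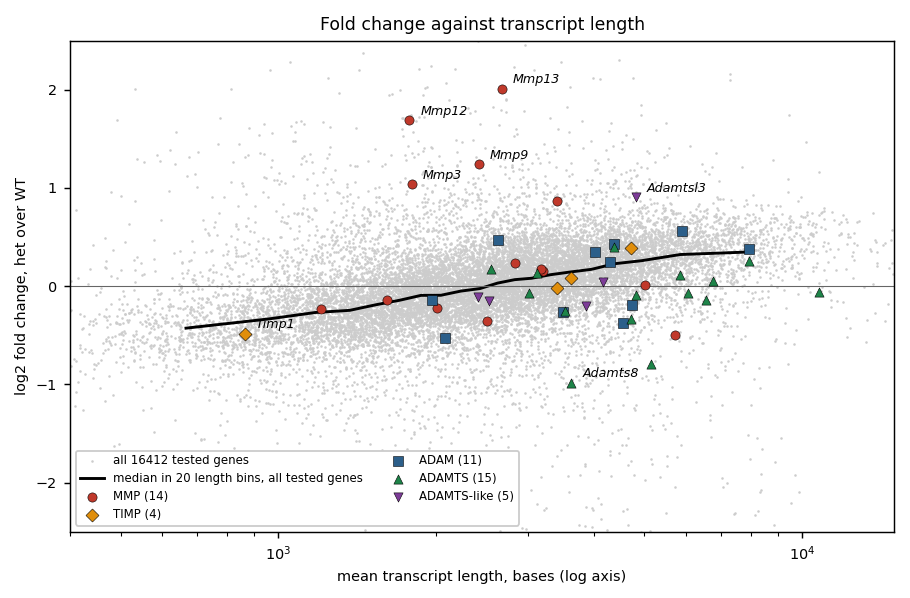
Log2 fold change, het over WT, against mean transcript length on a log axis for all 16412 tested genes (grey) and the 49 genes by family (coloured symbols), with the median in 20 length bins as a black line; genes outside the axis limits are not drawn. Mmp13, Mmp12, Mmp9 and Mmp3 lie above the line at lengths where its value is near or below 0, while Adam10, Adam9 and Adam22 lie at it or a little above.

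Transcript shares were compared for the 40 genes with a mean of at least 100 expected counts. The leading transcript, by isoform percent, held on average at least 80% in 18 of them and under 50% in 8. In 5 genes the share of the leading transcript did not overlap between the groups and differed by at least 10 percentage points: Mmp19, Adam23, Adamts2, Adamts3 and Adamts19. Of all 11517 tested genes with that many counts, 13.3% met the same rule, so 5 of 40 is near the background. With 3 against 2 libraries the smallest two-sided exact permutation p is 0.2, so these are descriptions. The transcript ENSMUST00000026411 of Mmp19 held 58.5%, 70.9% and 86.7% in het and 96.4% and 92.1% in WT, and the remainder went to ENSMUST00000219404. For Adam23, which encodes a protein without protease activity, ENSMUST00000097717 held 69.2%, 60.6% and 57.5% in het and 43.7% and 31.6% in WT. For Adamts3 the leading transcript held 62.7%, 69.2% and 66.5% in het and 56.6% and 53.5% in WT. Mmp19, Adam23 and Adamts3 met the same rule by the share of expected counts, where 10.5% of all genes did, and Adamts2 and Adamts19 did not. At the level of the gene, Mmp19 had 1.98, 2.84 and 2.80 TPM in het and 1.95 and 1.76 TPM in WT (log2 fold change 0.17, SE 0.24), and Adam23 had 0.88, 0.76 and 1.61 TPM in het and 1.52 and 1.03 TPM in WT (log2 fold change -0.38, SE 0.27).

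Genes that act on these proteases were read from a list of 39 activators, inhibitors, receptors and substrates, of which 34 were tested. One, Pcsk6, rose and 0 fell in the edgeR test, which is again near the background of 2.99% and 2.66%. At an unadjusted p under 0.05, 2 were higher and 6 lower, beside 12.9% and 11.9%. Pcsk6, a proprotein convertase that cuts the precursors of several secreted proteins, had 17.2, 16.2 and 18.8 TPM in het, against 12.02 and 11.92 TPM in WT. All 3 het libraries were above both WT libraries, and Pcsk6 rose by 0.51 in log2 units (SE 0.13, edgeR adjusted p = 0.0398). The call was lost with any 1 library left out, at an edgeR adjusted p of 0.097 without het 5, 0.0938 without het 6, 0.0986 without het 7, 0.0651 without WT 7 and 0.0701 without WT 8, and with length and GC trends removed (0.41, adjusted p = 0.135).

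Furin, the best known activator of membrane-type MMPs and ADAMs, had 32.1, 30.0 and 37.9 TPM in het and 31.0 and 25.2 TPM in WT, with a log2 fold change of 0.10 (SE 0.13). Bsg (basigin, also called the extracellular matrix metalloprotease inducer) was the most abundant gene of the list, at 534, 590 and 593 TPM in het, against 678 and 706 TPM in WT. Its het libraries were all below the WT libraries, with a log2 fold change of -0.45 (SE 0.13, edgeR adjusted p = 0.0597) that was -0.20 with length and GC trends removed (edgeR adjusted p = 0.481). Pcolce, which enhances the cutting of procollagen C-propeptides, had 68.4, 74.9 and 107 TPM in het and 110 and 94.0 TPM in WT (log2 fold change -0.46, SE 0.16, edgeR adjusted p = 0.0895, and -0.23 with an adjusted p of 0.488 once these trends were removed). Lrp1, the endocytic receptor that clears MMPs and TIMPs, had 116, 127 and 138 TPM in het and 170 and 117 TPM in WT, and on counts a log2 fold change of 0.27 (SE 0.21, edgeR adjusted p = 0.465). Without WT 7 the value of Lrp1 was 0.74 and passed the edgeR threshold (adjusted p = 0.034). Mrc2 itself had 8.36, 6.91 and 10.97 TPM in het and 9.57 and 5.95 TPM in WT (log2 fold change -0.01, SE 0.18). An amino acid change is not visible in gene counts, so these values do not check the genotype labels.

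In the authors' deposited table of their own het against WT comparison, 0 of 14927 genes had an adjusted p under 0.05 (0.0%), and the smallest adjusted p of any gene was 0.277. Of the 49 genes, 19 had a log2 fold change above 0 and 30 below in the authors' deposited table, with a median of -0.06 beside -0.03 for all genes. In it 1 of the 49 had a p under 0.05, beside 5.6% of the genes in the authors' deposited table. Mmp16 had the smallest p of the 49 in the authors' deposited table, 0.0414 at a log2 fold change of 0.74 (adjusted p = 0.817). By p, Adamts5 came next on the higher side of the authors' deposited table, at a log2 fold change of 0.52. Adamts14 and Mmp17 had the smallest p on the lower side of the authors' deposited table, at log2 fold changes of -0.91 and -0.73. Adamtsl3 had 0.18 and Mmp3 0.34 in the authors' deposited table. Mmp9 and Mmp12 had -0.31 and -0.29 in the authors' deposited table, against 1.24 and 1.69 in the edgeR fit of the 5 libraries. Only 29 of the 49 genes had the same sign in both. The sign also differed for Timp1, Timp3, Mmp2, Adam9 and Adam10, at 0.32, -0.14, -0.41, -0.21 and -0.02 in the authors' deposited table. Which animals entered the authors' comparison is not given in the sources used here, and it may share libraries with the 5 analysed here.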

How the data were processed

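Per the submitters' processing notes, STAR and RSEM were used with the build GRCm39, as were Trim Galore, FastQC, MultiQC and SAMtools, and edgeR and limma; versions and settings are not given in the sources used here. The deposited RSEM tables hold expected counts per gene and transcript, which the authors did not normalize, per the file headers. The same deposited tables hold TPM and, for transcripts, isoform percent (the share of the gene's TPM). The authors' deposited comparison table gives, for each gene, a log2 fold change, a score (the moderated t) and p-values.

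Sample titles assigned 3 libraries to het and 2 to WT, all of batch 2. For the count model, expected counts were rounded. The default expression filter of edgeR kept 16412 of 57186 genes. The test was edgeR's two-sided quasi-likelihood test with robust dispersions after TMM scaling, with Benjamini-Hochberg adjustment over all tested genes and calls at 0.05. A biological coefficient of variation of 0.18 was estimated. Each SE was obtained from the log2 fold change and the F statistic, and intervals are at 95%. Single comparisons by an exact permutation test cannot go below a two-sided p of 0.2, since 3 and 2 libraries allow 10 splits. Libraries held 17784601 to 28353091 expected counts, which limits the precision of low genes. Alternatives were other scalings and filters, DESeq2, limma-voom, limma-trend with TPM as log2(TPM + 1) or log2(TPM + 0.1), length and GC trends (mgcv) as edgeR offsets, and each library left out. GC content was known for 97.9% of tested genes, from GENCODE M21 transcripts.

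The genes, the lists, the role groups and the naming rule were chosen with earlier results of these data known. Named were called genes, the TIMPs, the 3 most abundant genes of each role group, up to 3 uncalled genes per direction with the smallest p, called regulators and the 4 most abundant ones, the leading genes of the authors' table (2 per direction by p) and genes whose leading transcript share differed between groups. Exceptions are stated where they occur.

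Promoter sequences are RefSeq's, on GRCm38.p6, and no coordinates of the submitters' build are given. RSEM divides reads shared between near-identical genes or transcripts by a model. On simulated data for het against WT over 16043 genes, the test recovered 62.6% of genes changed by 1 log2 unit and 82.3% of genes changed by 2. Of its 157 calls, 16 were false. The simulation changed 200 genes and held no length or GC trend, whereas the real libraries showed a length trend. These rates may therefore not hold for calls in the real libraries. DESeq2 1.42.0, edgeR 4.0.16, limma 3.58.1 and mgcv 1.9.3 were run in R 4.3.3.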

Additional observations from a re-analysis of the deposited data

How the results depend on the processing

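Of 576 values of named genes under 16 alternatives each, 509 kept their direction and their side of the threshold, 10 no longer passed it, 12 newly passed it and 45 changed sign, in 17 genes. The 10 that no longer passed were all of Adamtsl3, the only named gene of the 49 called in the main fit. The other named genes had no call to lose, so the 509 says little about how firm a call is. The number of genes called higher, 490, was 795 with library size alone, 1304 with every gene with a count, 867 with DESeq2, 237 with limma-voom, 4 and 15 with limma-trend at a pseudocount of 1 and of 0.1 on TPM, and 10 and 29 with the length trend and the length and GC trends removed. The number called lower, 436, was 907, 780, 222, 4, 7, 9 and 15 in the same order without library size alone. With 1 library left out, 0 to 588 genes were higher and 0 to 290 lower. Among the 49 genes, the 1 higher call became 3 with library size alone (Adam10 and Mmp3 added), 7 with every gene with a count (Adam10, Adam19, Mmp3, Mmp9, Mmp12 and Mmp13 added) and 4 with DESeq2 (Adam10, Mmp3 and Mmp9 added). It became 0 with both limma-trend fits and with either trend removed, and 0 to 1 with a library left out, where the 1, without WT 8, was Mmp3. The 0 lower calls became 0 to 1 with a library left out (Adam33 without WT 8). These leave-outs of a WT library assume that the lone WT library varies like the het libraries. The cause of these changes was not tested. The 1 regulator called higher became 0 with limma-voom, both limma-trend fits and either trend removed, and 0 to 1 with a library left out, where the 1, without WT 7, was Lrp1 and not Pcsk6. The 0 lower calls became 1 with upper-quartile scaling (Bsg), 2 with every gene with a count and 1 with DESeq2 (Bsg). Genes with a differing transcript share numbered 3 by counts in place of 5.

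Log2 fold changes that changed sign were as follows, for the 36 genes named by the rule, which the counts above also cover. Mmp12, Adam17, Adam19 and Adam22, named outside the rule, are in neither. Adam17 changed sign with length and GC trends removed. With the length trend removed they were -0.030 (Timp2), -0.22 (Mmp15) and -0.14 (Adamts15). With length and GC trends removed they were -0.040 (Mmp15), -0.12 (Adamts15), 0.097 (Mmp23), 0.10 (Mmp24os1), 0.056 (Adam15) and 0.063 (Adamtsl5). Timp4 gave 0.033 with library size alone, 0.023 with every gene with a count and 0.18 with limma-voom. Mmp15 gave -0.033 with upper-quartile scaling and -0.0068 when the filter was a mean of at least 1 CPM. At pseudocounts of 1 and 0.1 the TPM values were 0.13 and 0.17 (Timp4), 0.023 and 0.024 (Mmp24os1), 0.11 and 0.12 (Adamts2), 0.11 and 0.11 (Adamts10), 0.0149 and 0.015 (Adamts19), 0.11 and 0.11 (Adamtsl5), and 0.055 and 0.075 (Adamts5). With a library left out the ranges were -0.55 to 0.80 (Timp4), -0.025 to 0.59 (Mmp2), -0.083 to 0.071 (Mmp15), -0.043 to 0.31 (Adamts15), -1.60 to 0.11 (Adamts8), -0.35 to 0.026 (Adamts2), -0.13 to 0.51 (Adamts3), -0.32 to 0.27 (Adamts10), -0.48 to 0.055 (Adamts7), -0.33 to 0.21 (Adamts19), -0.39 to 0.082 (Adamtsl2) and -0.16 to 0.045 (Adamts5).

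No paired analysis was possible because het and WT share only the replicate number 7. With 2 WT libraries, each of them decides the direction of several values. Depth limits the low genes: Mmp13 rests on as few as 5 counts in a library.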

Other observations

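A further 36 genes of these families, by their GENCODE symbols, were in the count tables and not in the authors' comparison table. Their summed level was 1.23, 1.94 and 1.71 TPM in het 5, het 6 and het 7, against 1.87 TPM in WT 7 and 2.85 TPM in WT 8, so these genes added little to the 49. Of the 36, 14 had 0 counts in all 5 libraries, and 35 had at most 20 expected counts in any library. The exception was Adam12, a gene of mesenchymal and regenerating muscle cells, with 0.10, 0.21 and 0.44 TPM in het and 0.12 and 0.09 TPM in WT. Germ cell markers, of the tissue in which many ADAM genes are known to be expressed, summed to 2.46, 3.07 and 1.87 TPM in het and to 1.0 and 0.91 TPM in WT, with Tnp1 at 0 in all libraries. Sycp3 supplied most of that sum in every library, at 2.18, 2.14 and 1.70 TPM in het and 0.81 and 0.73 TPM in WT. Its log2 fold change of 1.26 did not pass (edgeR adjusted p = 0.134), and Dazl had 0.13.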
